A study of Pyrus pyrifolia with 6 samples.

Results

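Sugar moves between cells and compartments through membrane carriers, and 3 pear genes for such carriers are described here in fruit pulp with and without boron: a bidirectional sugar transporter N3-like gene (LOC103941020), a sucrose transport protein-like gene (LOC103964096) and putative polyol transporter 1 (LOC103929477). They were chosen by name from 4291 genes that the authors had called as differing in these very libraries. In the authors' deposited table the choice rested on a log2 fold change (boron over control) of -5.37, 3.05 and 8.85, in that order, with an adjusted p-value given as 0, 1.24e-25 and 2.57e-12. Differences between boron and control in these 3 genes are therefore descriptions, and no test is given for them.

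The samples were fruit of Akibae pear (Pyrus pyrifolia) from a university orchard, with RNA taken from the pulp. Fruit had a boron application or served as control (CK), and each group had 3 mRNA libraries, numbered 1 to 3. How much boron was given, in which form and when, and what the control fruit received, is not stated in the sources used here. Whether replicate libraries stem from different trees or fruits is not stated, so SDs and tests cover only the spread between these libraries, which may be technical. The libraries held 1914312 to 2056668 reads in the 4291 listed genes. The table holds genes selected for a difference, so it offers no steady set of pulp markers against which the tissue label could be checked.

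SWEET proteins let sugars cross a membrane along their gradient and take part in sugar efflux from cells. Sucrose transport proteins (SUT or SUC) carry sucrose together with protons and load it into the phloem or take it up into sink cells. Polyol transporters carry sugar alcohols with protons. In pear and its relatives sorbitol, a sugar alcohol, is a main form in which carbon travels from leaf to fruit, beside sucrose.

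In control pulp the N3-like SWEET gene was by far the strongest of the 3, with the sucrose transporter low and the polyol transporter close to absent. In boron-treated pulp the SWEET gene was 41.4-fold lower, the sucrose transporter 8.23-fold higher and the polyol transporter higher from a single control read. These folds depend on the scaling of the libraries. With TMM scaling over the listed genes the log2 fold change was -6.80 in place of -5.36 for the SWEET gene. For the sucrose transporter it was 1.68 in place of 3.09. TMM takes most genes as unchanged, although every listed gene had been called as differing. TMM values are therefore given to show how far results can move, and which scaling is nearer the truth was not tested. The 3 genes lay at similar levels in the boron libraries. Values are counts normalized by the authors with 1 size factor per library, called normalized counts, and log2 fold changes (boron over control) with their SE come from limma on log2(normalized count + 1). Bulk pulp RNA cannot tell fewer cells of a type from less RNA per cell.

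The N3-like gene (LOC103941020, scaffold NW_008989257.1, 55027 to 57810, minus strand, gene length 1474 bases) had 6497, 6883 and 7149 normalized counts in control libraries 1 to 3. In boron libraries 1 to 3 it had 177, 159 and 160 normalized counts. The lowest control library stood far above the highest boron library. The group means were 6843 ± 328 in control and 165 ± 10.4 in boron (SD, n = 3 each), a log2 fold change of -5.36 ± 0.08. The SD was 4.79% of the mean in control and 6.31% in boron, so the spread was small beside the difference. Its fold change ranked 24 from the lowest among the 4291 listed genes.

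The sucrose transport protein-like gene (LOC103964096, scaffold NW_008988298.1, 186286 to 189928, plus strand, gene length 2032 bases) had 16.0, 40.6 and 36.7 normalized counts in control libraries 1 to 3. In boron libraries 1 to 3 it had 297, 218 and 253. Every boron library was above every control library, and control library 1 was the lowest of its group. The means were 256 ± 39.3 in boron and 31.1 ± 13.2 in control (SD, n = 3 each), a log2 fold change of 3.09 ± 0.32. The control values rest on 16, 39 and 34 reads, and their SD was 42.6% of the mean against 15.3% in boron. Without control library 1 the log2 fold change was 2.69.

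Putative polyol transporter 1 (LOC103929477, scaffold NW_008988484.1, 255397 to 258000, minus strand, gene length 1966 bases) had 0, 0 and 1 reads in control libraries 1 to 3. In boron libraries 1 to 3 it had 178, 180 and 155 normalized counts, from 184, 200 and 158 reads. The gene was thus at the edge of detection in control pulp and of middling level in boron pulp. The boron mean was 171 ± 14.0 (SD, n = 3). The ratio of boron to control reads, corrected by the size factors, was 496, with an exact 95% interval of 88.6 to 19612 that covers counting error only. The log2 fold change of 7.07 ± 0.44 depends on the pseudocount, since the control group held only 1 read.

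**Figure D1:**
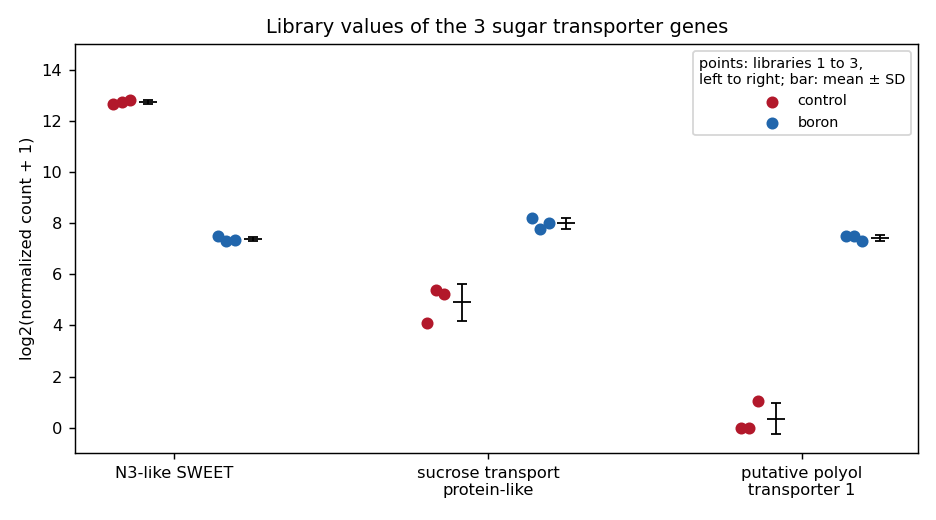
Library values of the 3 genes on the log2(normalized count + 1) scale (vertical axis), control in red and boron in blue, with libraries 1 to 3 from left to right and bars for the group mean ± SD of the log2 values. In control the genes lie far apart, and in boron all 9 values lie between 155 and 297 normalized counts.

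Compared per length, the 3 genes spanned a wide range in control and a narrow one in boron. In control the level was 4643 ± 222 normalized counts per kilobase for the N3-like gene, 15.3 ± 6.52 for the sucrose transporter and 0.183 ± 0.317 for the polyol transporter (SD, n = 3 each), with no overlap between neighbours in that order. In boron the order was the sucrose transporter at 126 ± 19.3, the N3-like gene at 112 ± 7.08 and the polyol transporter at 87.1 ± 7.14 normalized counts per kilobase. There the sucrose transporter (107 to 146) and the N3-like gene (108 to 120) overlapped, and the polyol transporter (78.9 to 91.7) lay below both. The highest of the 3 levels was 1.61, 1.17 and 1.58 times the lowest in boron libraries 1 to 3. The N3-like gene had 561, 234 and 268 times the sucrose transporter's level per kilobase in control libraries 1 to 3, and 0.824, 1.00 and 0.871 times in boron libraries 1 to 3. Ranked by mean level per kilobase among all 4291 listed genes, the N3-like gene was at place 54 in control and 1307 in boron, the sucrose transporter at 2352 and 1230, and the polyol transporter at 4063 and 1527.

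The wider group of sugar transporters in the table had 25 genes by their descriptions, the 3 genes included. Of the other 22, 19 were higher and 3 lower in boron by the limma test (adjusted p under 0.05), and the library values of the groups did not overlap in any of the 22. Among all 4291 listed genes 99.2% passed, 73.0% as higher and 26.2% as lower, and 97.7% had groups that did not overlap, because the table holds only genes the authors had called. Nothing about sugar transporters in particular can be read from these counts. The median log2 fold change of the 22 genes was 2.55, against 1.62 for all listed genes. It was 2.52 with the 3 genes at 0 control reads set to their fold over a floor of 3 reads. A mean of at least 100 normalized counts left 8 of the 25 transporters, the N3-like gene and the sucrose transporter included. Of these, 5 were higher and 3 lower, with a median of 1.41 against 1.21 for all listed genes left. With TMM scaling, which shifts the median of all listed genes by -1.40, 12 of the 22 were higher, 3 lower and 7 did not pass, against 1433 higher and 1241 lower of all listed genes. In that scaling, as in every other, the N3-like gene stayed lower and the other members higher.

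SWEET genes, the family of the N3-like gene, numbered 6 in the table, and of the other 5, 4 rose and 1 fell. With TMM scaling 2 of the 4 rises did not pass, and TMM and quantile scaling turned 1 of them (LOC103943446) to a value below 0. The most abundant of those that rose was SWEET17-like (LOC103964212), whose namesake in Arabidopsis moves fructose across the vacuole membrane. It had 24.9, 27.1 and 28.1 normalized counts in control libraries 1 to 3 and 394, 388 and 382 in boron libraries 1 to 3, a log2 fold change of 3.81 ± 0.16. All boron libraries were far above all control libraries, with little spread in either group. The genes described as SWEET4-like moved apart: LOC103939538 fell from 85.3 ± 18.0 to 5.08 ± 0.720, and LOC103949267 rose from 6.24 ± 1.82 to 62.2 ± 26.6 normalized counts (both chosen after their values were seen). Both SWEET2a-like genes rose with the authors' size factors, LOC103951222 from 63.3 ± 25.9 to 186 ± 8.23 and LOC103943446 from 11.5 ± 5.56 to 29.2 ± 7.02 (likewise chosen after their values were seen), but neither passed with TMM scaling, where their log2 fold changes were 0.20 and -0.010.

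The N3-like gene made up most of the listed SWEET transcripts in control. Its share of the family's summed level per kilobase was 96.6% ± 0.479 in control and 16.3% ± 0.881 in boron (SD, n = 3 each). SWEET17-like took 0.514% ± 0.00574 in control and 52.3% ± 0.653 in boron. The other 5 SWEET genes together went from 164 ± 31.5 to 575 ± 14.4 normalized counts per kilobase, 3.51-fold higher with the authors' size factors and 1.29-fold higher with TMM scaling. Across all 25 listed transporters the N3-like share was 85.9% ± 1.00 in control and 5.88% ± 0.273 in boron. The summed level of the other 24 was 762 ± 40.2 in control and 1794 ± 26.7 in boron, 2.36-fold higher, but with TMM scaling the same sums were 1263 ± 74.9 in control and 1097 ± 12.8 in boron, so the direction of that sum depends on the scaling. A single factor per library leaves the shares themselves as they are. These shares cover listed genes only, and transporters that the authors did not call are not in them.

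**Figure D2:**
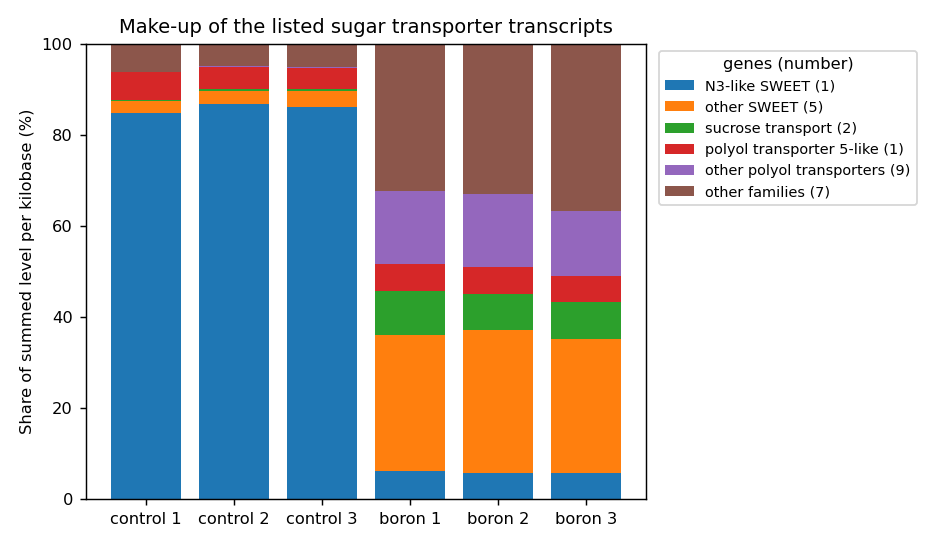
Share of each group of listed sugar transporters (colours) in their summed level per kilobase, in percent (vertical axis), for each library (horizontal axis), with the number of genes in brackets. The N3-like gene fills 84.8% to 86.7% of the control bars and 5.71% to 6.19% of the boron bars.

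Sucrose transport proteins had 2 listed genes. The other, LOC103940043 (chosen after its values were seen), has a gene length of 2033 bases, 1 base from that of LOC103964096, and the same description. It had 14.0, 12.5 and 7.56 normalized counts in control libraries 1 to 3 and 85.3, 82.0 and 58.9 in boron libraries 1 to 3, and it rose by a log2 fold change of 2.65 ± 0.33. The groups did not overlap in either gene. LOC103964096 held 77.2% ± 4.25 of the summed level per kilobase of both genes in boron and 70.9% ± 15.6 in control (SD, n = 3 each), so the split between the copies differed by less than the spread of the control libraries. No sequences were compared, and if the genes are near-identical copies, reads may have been split between them, so the value of each is uncertain.

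Sucrose transporters are known from phloem, and markers of phloem and vascular tissue were higher beside them with the authors' size factors. All 5 listed markers passed as higher, in a table where 99.2% of genes passed and 73.0% were higher, and 3 of the 5 passed with TMM scaling. Their summed level ranged from 435 to 536 normalized counts per kilobase in boron libraries and from 158 to 180 in control libraries. The strongest was a PHLOEM PROTEIN 2-LIKE A1-like gene (LOC103946488), with 353 normalized counts per kilobase in boron and 166 in control. Its log2 fold change of 1.07 is smaller in size than the shift of -1.40 that TMM scaling gives the median of all listed genes. The summed marker levels in this paragraph were not rescaled. A SIEVE ELEMENT OCCLUSION B-like gene (LOC103938158), whose kind of protein forms filaments in sieve tubes, had 254, 239 and 232 normalized counts in boron libraries 1 to 3 and 1 read in each control library. The other gene of that description (LOC103926766) had 39.7, 80.2 and 57.9 against 9.97, 13.5 and 4.32. A laccase-15-like gene (LOC103943300) was at 0 reads in control libraries 1 and 3. This gene and laccase-4 (LOC103959581) are not described as phloem genes. Both were low, with 52 and 61 boron reads against 1 and 12 control reads, in that order. Markers of tissue with chloroplasts were higher in 47 of 48 genes, beside 73.0% of all listed genes, and in 43 with TMM scaling. They had a summed level of 10204 to 11461 normalized counts per kilobase in boron and 2418 to 2530 in control. The 3 listed peel markers split into 1 higher and 2 lower, summing to 58.3 to 61.7 in boron and 115 to 134 in control. The 7 seed markers split into 5 higher and 2 lower, with summed levels of 1301 to 1382 in boron and 1309 to 1445 in control. The part of these tissues in the differences of the transporters was not tested.

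Polyol transporters, with 10 genes, were the largest family among the 25 listed sugar transporters, and of the 9 other than LOC103929477, 8 rose and 1 fell. LOC103936320 did not pass with TMM, DESeq2-type or quantile scaling, and LOC103964609 and LOC103964421 did not with quantile scaling, where 5 of the 8 rises were left. The description "putative polyol transporter 1" was shared by 7 of them, LOC103929477 included, and all 7 were higher. In total these 7 genes had 51 reads in control and 1546 reads in boron. LOC103929477 had the most, 542 boron reads, and held 34.9% ± 1.90 of their summed level per kilobase in boron. LOC103936915 came next in level, rising from 5.89 ± 0.644 to 150 ± 29.3 normalized counts, and LOC103964420 rose from 4.52 ± 2.24 to 87.3 ± 10.7 (both chosen after their values were seen). In LOC103936910 and LOC103964421 no read was found in control. Against an assumed floor of 3 reads over that group they were at least 22.9-fold and at least 4.57-fold higher in boron. The exact 95% intervals started lower, at 18.1 and 3.28, and LOC103964421 had a log2 fold change of 0.088 under quantile scaling. LOC103964609, similar to polyol transporter 5, was also at 0 in control and at least 7.62-fold higher against the same floor, with an exact interval from 5.75. These 3 genes were likewise chosen after their values were seen. Because 7 genes carry one description and no sequences were compared, reads may have been split or shared among like copies, and the values of single genes are uncertain.

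Some of these copies lie on shared scaffolds. LOC103964420 and LOC103964421 are 21861 bases apart, LOC103936324 and LOC103936320 are 83471 bases apart, and LOC103936915 and LOC103936910 are 105152 bases apart. LOC103929477 shares its scaffold with no other listed transporter, and none of the 2 listed genes there lies within 50 kilobases of it. LOC103964096 is the single listed gene of its scaffold. The N3-like gene has 1 listed neighbour, LOC103941025, which carries no description, lies 5983 bases away and had 24.2 ± 9.90 normalized counts in boron and 76.1 ± 13.6 in control (SD, n = 3 each).

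The most abundant listed polyol transporter of control pulp went the other way. Polyol transporter 5-like LOC103960707 had 575, 483 and 476 normalized counts in control libraries 1 to 3 and 210, 207 and 197 in boron libraries 1 to 3. The groups did not overlap, and it fell by a log2 fold change of -1.31 ± 0.12. It held 96.7% ± 1.20 of the listed family's summed level per kilobase in control and 27.5% ± 0.751 in boron. LOC103929477 held 0.0671% ± 0.116 in control and 21.4% ± 0.705 in boron. The 9 listed family members other than LOC103960707 summed to 9.54 ± 3.40 normalized counts per kilobase in control and 296 ± 20.7 in boron. All listed family members together were at 289 ± 31.0 in control and 408 ± 24.4 in boron, 1.41-fold higher. With TMM scaling they were instead at 480 ± 53.9 in control and 249 ± 13.6 in boron, lower in boron. Polyol transporters that the authors did not call are not in these sums and shares.

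Hexose carriers, described as sugar transport protein or sugar carrier protein, had 4 listed genes, and all 4 rose with the authors' size factors, but only sugar carrier protein C (LOC103963763) also passed with TMM and DESeq2-type scaling, and LOC103956610 went below 0 there. LOC103956610 is the most abundant, a sugar transport protein 13-like gene of a family that takes up hexoses at the plasma membrane. It rose from 74.6 ± 5.85 to 189 ± 7.64 normalized counts, but with TMM scaling its log2 fold change of 1.33 became -0.099 and it did not pass. Sugar transporter ERD6-like 16 (LOC103943592), of a family of vacuolar sugar carriers, rose from 216 ± 22.5 to 609 ± 48.4, a call that TMM scaling ended as well (0.059). Probable plastidic glucose transporter 3 (LOC103944852) rose from 9.98 ± 4.58 to 75.1 ± 4.16. Inositol transporter 4 (LOC103963755), which carries the cyclic sugar alcohol myo-inositol, fell from 198 ± 64.5 to 75.3 ± 6.95, with control library 1 (272) above the other control libraries (154 and 169).

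**Figure D3:**
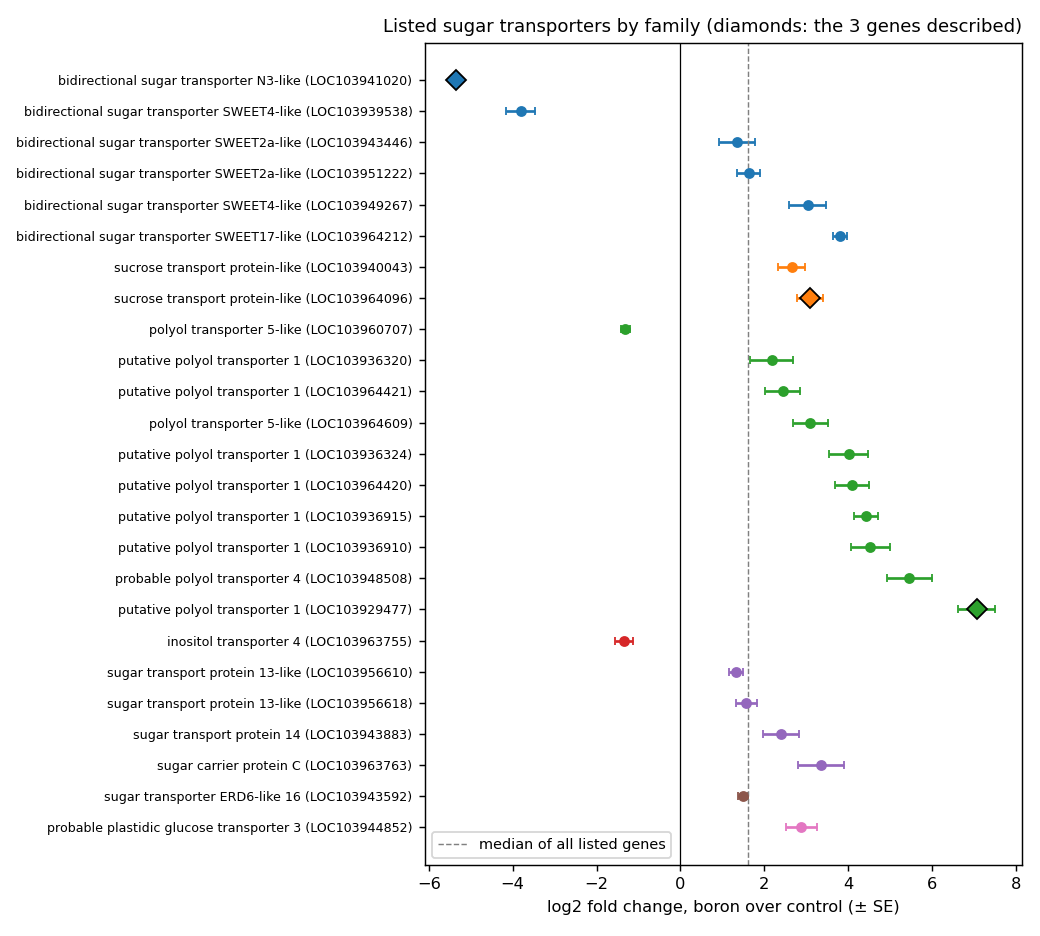
Log2 fold change, boron over control, with SE (horizontal axis) of the 25 listed sugar transporters (rows), coloured by family, from limma on log2(normalized count + 1), with the 3 genes described in full as diamonds and the median of all listed genes as a dashed line. The N3-like gene is the lowest at -5.36 and putative polyol transporter 1 (LOC103929477) the highest at 7.07, and 4 of the 25 genes lie left of 0.

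With the authors' size factors, enzymes that make or use the carried sugars were mixed. Of 4 sorbitol dehydrogenase-like genes, which turn sorbitol into fructose, 3 were higher and 1 lower. LOC103960512 (chosen after its values were seen) held 2913 of their summed 3183 normalized counts per kilobase in boron. Its log2 fold change of 1.34 is smaller in size than the shift of -1.40 that TMM scaling gives the median of all listed genes. The single listed sorbitol-6-phosphate dehydrogenase, an enzyme of sorbitol synthesis, was lower. All 4 sucrose-phosphate synthase genes and both neutral invertases were lower, and all 3 acid invertases were higher (1 with overlapping groups). The acid invertases with groups apart rest on few reads (named after their values were seen). LOC103935818 had 50 reads in boron and 1 in control, and LOC103961960 had 47 and 9. The 4 sucrose synthase genes and 2 fructokinase genes split evenly. Together 9 of these 20 enzyme genes were higher and 11 lower, beside 73.0% higher and 26.2% lower among all listed genes.

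A further deposited table gives a score for each of 42194 genes, whether called or not. Scores were above 0 for 16512 genes, below 0 for 14072 and at 0 for 11610. The score divides boron mean minus control mean by the 2 SDs added together, each SD being raised to 0.2 of its mean where it is smaller, as a rebuild from the library values showed within 0.0001 for all 4070 listed genes with both means above 0. LOC103929477 had the fifth highest score of all genes (4.90), the sucrose transporter LOC103964096 ranked 459 from the top (3.49) and the N3-like gene ranked 10 from the bottom (-4.76). Scores come from the same contrast that chose the genes. For the N3-like gene both SDs lay under the floor, so its score follows from its means alone. The spread of the control libraries entered the score of the sucrose transporter. For LOC103929477 the boron SD lay under the floor, and the control mean and SD rested on 1 read.

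The listed genes most like each of the 3 were sought by the distance between log2 profiles over the 6 libraries, each profile set to its own mean, among genes with a mean within a factor of 2. For the N3-like gene the closest of 130 candidates was probable boron transporter 2 (LOC103956856), of a kind of protein that moves borate across membranes, at a distance of 1.77 log2 units. It had 3601 ± 111 normalized counts in control and 234 ± 28.2 in boron. A dihydrofolate reductase-like gene (LOC103937173, 1.84) and CASP-like protein 1D1 (LOC103958556, 2.42) followed, and all of them were less strongly lower than the N3-like gene. For the sucrose transporter, 1085 candidates gave closer profiles: an uncharacterized gene (LOC103927320, 0.522), serine carboxypeptidase-like 45 (LOC103946328, 0.533) and a disease resistance protein At4g27190-like gene (LOC103940473, 0.537). For putative polyol transporter 1 (LOC103929477), the closest of 1250 was the SIEVE ELEMENT OCCLUSION B-like gene LOC103938158 (0.865), followed by a photosystem I subunit V-like gene (LOC103938417, 0.911) and a methionine gamma-lyase-like gene (LOC103950120, 1.16). With 6 libraries in 2 groups, such distances mostly measure the size of the group difference.

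**Figure D4:**
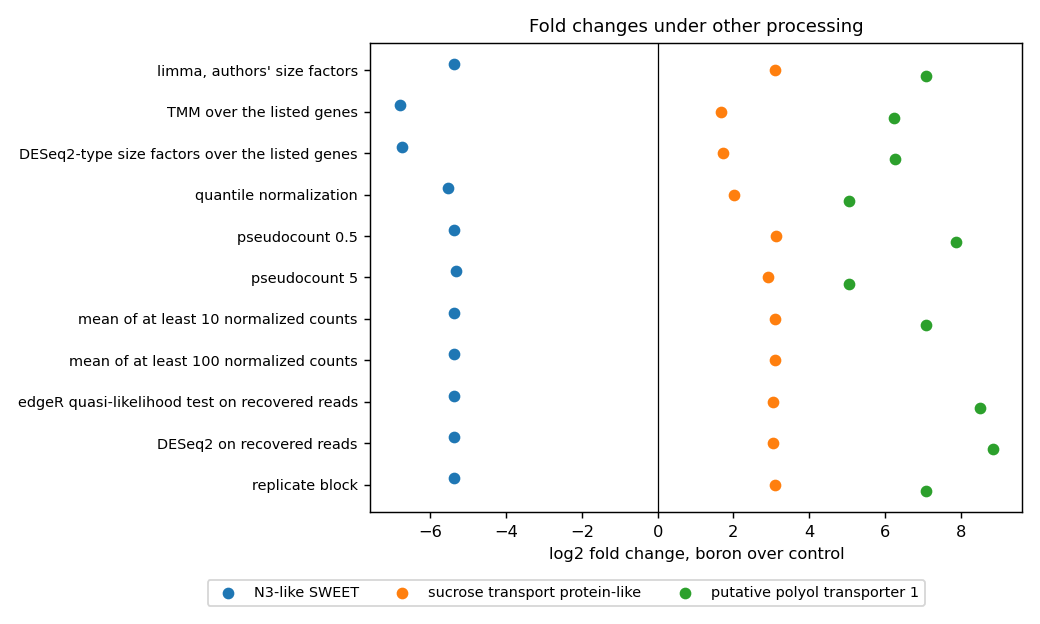
Log2 fold change, boron over control (horizontal axis), of the 3 genes under the processing used here (top row) and 10 alternatives (rows below), with no point where a filter removed the gene. The direction of each gene is the same in every row, and putative polyol transporter 1 moves most, from 5.04 to 8.85.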

How the data were processed

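Pulp mRNA was sequenced from 3 boron and 3 control libraries. Per the submitters' processing notes, HISAT2 was used. Counting, strand, genome build and statistical test are not stated in the sources used here. Library values are signal: the authors scaled each library's gene counts by its own size factor (0.926 to 1.11). All values (100%) were whole multiples of 1 step per library within 0.001, which gave back the reads. The authors' deposited table also holds their log2 fold changes and p-values, per the file headers, and gene length in bases. These are printed only where that table is named, and all other fold changes and calls are from limma. The second deposited table holds the authors' score.

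The main test was limma 3.58.1 (trend, robust, R 4.3.3), two-sided, on log2(normalized count + 1) over all 4291 listed genes, Benjamini-Hochberg adjusted, at 0.05. The design had foreseen this unit. The smallest absolute log2 fold change of the authors' deposited table is 1.00 and its largest adjusted p-value 0.0499. Of the listed transporters, LOC103960707 lies nearest to that fold limit (-1.32), and LOC103943446 has the largest adjusted p-value (0.0469). Genes outside these limits have no library values. Intervals (exact binomial, SciPy 1.17.1) cover counting error only. Floors are plain ratios against 3 assumed reads in the group at 0 and leave out the counting error of the boron reads. The alternatives used edgeR 4.0.16 and DESeq2 1.42.0.

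The 3 genes and all lists, which match gene descriptions, were chosen with earlier results of these data known. By rule, text on each family names its gene of highest mean per kilobase in each direction, and for each of the 3 genes the 3 most similar listed genes. Scalings of summed levels were added after seeing the data. Other transporters and all markers named were chosen after their values were seen.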

Additional observations from a re-analysis of the deposited data

How the results depend on the processing

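Direction held for the 3 genes in every alternative run in which they were tested. Scaling over the listed genes moved them: with TMM, DESeq2-type size factors and quantile normalization the log2 fold change was -6.80, -6.75 and -5.53 for the N3-like gene, 1.68, 1.72 and 2.02 for the sucrose transporter, and 6.23, 6.25 and 5.05 for putative polyol transporter 1. The last was 7.87 and 5.04 with pseudocounts of 0.5 and 5, 8.51 with edgeR and 8.85 with DESeq2 on the recovered reads, the control group holding 1 read. In the same scalings 2674, 2701 and 2672 listed genes passed, against 4257, with 53.6%, 55.0% and 57.1% higher. A mean of at least 100 normalized counts left 1684 listed genes and 8 of the 25 transporters passing, since fewer genes were tested. The 3 genes are counted in where tested. Putative polyol transporter 1 was removed there because its own mean over the libraries lay under 100. Named transporters that changed sign, none of them passing there, were LOC103943446 (-0.010 with TMM, -0.22 with quantile normalization) and LOC103956610 (-0.099 with TMM, -0.054 with DESeq2-type size factors). The log2 fold change of the summed level of the 24 listed transporters other than the N3-like gene was 1.24. With TMM it was -0.20 and with DESeq2-type size factors -0.16. For the sum of all listed polyol transporters, 0.50, it was -0.95 with TMM and -0.90 with DESeq2-type size factors. Quantile normalization gave that sum -0.19 (scalings added after seeing the data). edgeR and DESeq2 each called all 4291 listed genes. Leaving out 1 library at a time gave -5.41 to -5.33, 2.69 to 3.33, and 6.90 to 7.42 for the 3 genes. In these runs 4206 to 4228 listed genes passed, and 19 of the 22 other transporters passed as higher and 3 as lower. With a replicate block 4258 listed genes passed, and the 22 other transporters split in the same way. Same-numbered libraries did not deviate together (correlations -0.013, 0.026 and -0.039). With 3 libraries per group this cannot settle whether the samples were paired, and the labels state no pairing. Depth limits the control values of the sucrose transporter (89 reads) and of putative polyol transporter 1.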

Other observations

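Acid invertases split sucrose in the vacuole or cell wall into the hexoses that the carriers above transport. Acid beta-fructofuranosidase-like LOC103935817 had 624, 28.8 and 118 normalized counts in boron libraries 1 to 3 and 2.99, 30.2 and 6.48 in control libraries 1 to 3. Boron library 2 lay below control library 2, so the groups overlapped, although the gene counts among the 3 acid invertases that passed as higher. It was named after its values were seen.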
